A study of Mus musculus with 2 samples.

Results

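The genes described here encode the nuclear subunits of the mitochondrial respiratory chain and of ATP synthase, with a few assembly factors that carry the same name roots. They were taken by name from the per-gene counts of the adult and the aged heart (symbols that begin with Ndufa, Ndufb, Ndufc, Ndufs, Ndufv, Uqcr, Cox4 to Cox8 or Atp5, and Sdha to Sdhd), which gave 90 of the 25235 genes listed in either library. Of these, 88 lay on 18 autosomes and 2, Ndufb11 and Cox7b, on the X chromosome. By role there were 35 complex I subunits, 4 subunits of complex II, 8 of complex III, 17 of complex IV (counting Cox7a2l, a supercomplex factor), 15 of ATP synthase, 7 Ndufaf assembly factors of complex I, the pair Ndufa4 and Ndufa4l2, and Atp5s and Atp5sl, which are not ATP synthase subunits.

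Both libraries came from hearts of female F1 hybrids of a C57BL/6J (BL6) mother and a CAST/EiJ (CAST) father, 1 at 9 weeks (adult) and 1 at 78 weeks (aged), each from 1 animal by the study's methods. The breed label of both samples also names the ∆Xist-/+ line on the maternal side, whereas the genotype label gives C57BL/6JxCAST/EiJ and the methods describe wild-type animals. DRAQ7+ nuclei were sorted by FACS, profiled by droplet-based single-nucleus RNA-seq (snRNA-seq), and those whose active X chromosome (Xa) was the BL6 one were pooled into 1 pseudobulk per age, so that the inactive X (Xi) was the CAST one. The values are reads that overlap a SNP between the strains, split by allele, and they include intronic sequence from unspliced nuclear RNA. With 1 library per age there is no replicate check, no test was run, and every interval below is a 95% interval that covers counting error only.

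The respiratory chain passes electrons from NADH (complex I) or succinate (complex II, which is also the citric acid cycle's succinate dehydrogenase) through complex III to oxygen at complex IV, and the proton gradient built on the way drives ATP synthase. Heart muscle depends on this pathway for nearly all of its ATP. Most subunits are encoded in the nucleus, a core set in mitochondrial DNA, and several complex IV subunits come as tissue-specific isoform pairs. No row of either library lay on the mitochondrial chromosome, so the subunits encoded there are not analysed here.

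SNP-overlapping reads numbered 9747535 for the adult and 5805807 for the aged library, and levels are given as RPM, that is, reads divided by that sum and multiplied by 1000000. An RPM value depends on how many SNPs a gene carries, so genes were not ranked against each other by level. All 90 genes had reads in both libraries, from 2 to 2019 per gene in the adult (median 319.5) and from 2 to 1297 in the aged library (median 234). Together they took up 0.424% of the adult and 0.470% of the aged reads. Their loci were short, with a median span of 7261 bp against 18426 bp over all listed loci, and 16 of them overlapped another annotated locus, whose reads cannot be told apart from theirs within the overlap. Cardiomyocyte markers were present in both libraries, with all 8 listed and a summed level of 29298 RPM in the adult and 26382 RPM in the aged library (ratio 0.90, 0.895 to 0.906). Of the 8, 5 were higher in the aged library, and without Ttn the sum went the other way (17449 and 19510 RPM, ratio 1.12, 1.11 to 1.13). Summed markers were higher in the aged library by 1.59-fold for fibroblasts (5 of 7 genes higher), 1.58-fold for endothelial cells (4 of 6), 1.64-fold for macrophages (6 of 6) and 2.43-fold for pericytes and smooth muscle (4 of 5). Those of lymphocytes and adipocytes had ratios of 0.920 (0.781 to 1.08) and 0.953 (0.696 to 1.30), and Cd3e was at 0 in the aged library. The part of any of these cells in the ratios below was not tested. From counts pooled over nuclei of many types, fewer nuclei of a type and less RNA per nucleus cannot be told apart. Over all nuclei of these hearts, whichever X was active, the paper reported a smaller cardiomyocyte and a larger fibroblast proportion in the aged heart.

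The first comparison asked how the level of the pathway differed between the adult and the aged heart. Summed over the 88 autosomal genes, the level was 4029 RPM in the adult and 4469 RPM in the aged library, a ratio of 1.11 (1.09 to 1.13). Of the 78 genes with at least 50 reads over both libraries, 56 were higher and 22 lower in the aged library. Over all autosomal genes at that depth, 7876 were higher and 4955 lower. Their median log2 ratio was 0.15, beside 0.19 over all 12831 autosomal genes at that depth, a difference of -0.032 on the log2 scale. Their spread was also narrower, with the middle 50% of the genes between -0.026 and 0.39 against -0.28 and 0.63 over all autosomal genes. At least 1.5-fold higher in the aged library were 12 of 78 (15.4%, against 27% of all autosomal genes tested), and at least 1.5-fold lower were 3 of 78 (3.85%, against 14.6%). The remaining 63 stayed within 1.5-fold. When the libraries were instead scaled by the median of the gene ratios, 5 genes were higher and 5 lower past the same fold, against 19.2% and 20% of all genes, and the summed ratio was 0.979. That scale divides every ratio below by 1.13, which puts the sums of complexes I and III at 0.98 and 0.942 and that of ATP synthase at 0.879, all under 1, and leaves those of complex II (1.08) and complex IV (1.06) above it.

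**Figure D1:**
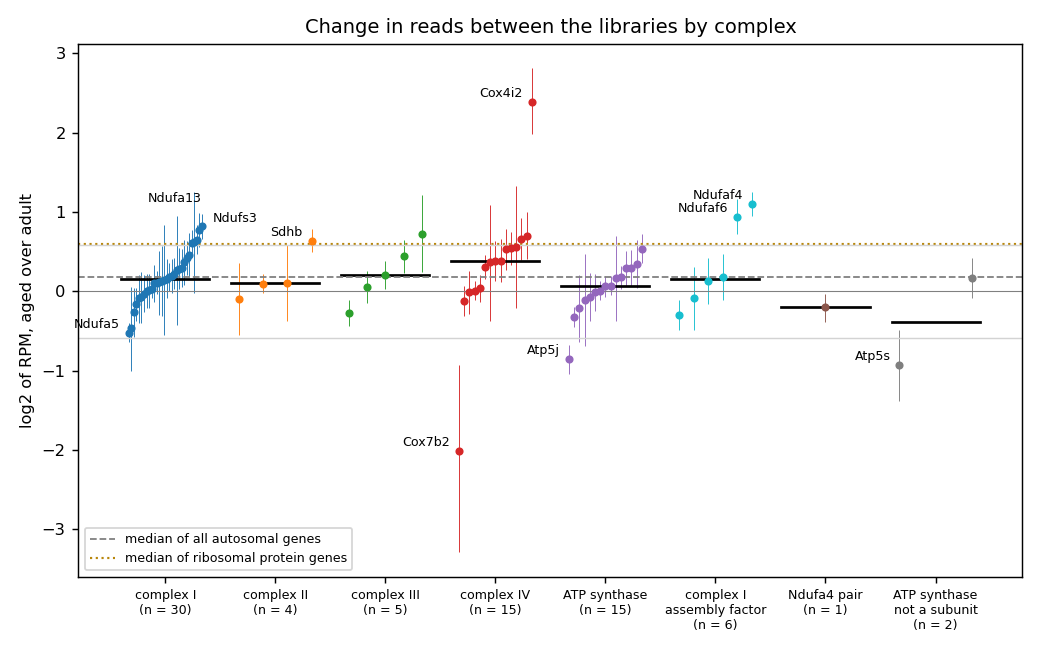
Each point is 1 autosomal gene with at least 50 reads over both libraries, placed by complex, with its log2 ratio of RPM (aged over adult) on the vertical axis, a 95% counting interval and the median of its group as a black bar. The pale lines mark 1.5-fold, the dashed line the median of all autosomal genes (0.19) and the dotted line that of ribosomal protein genes (0.60). Most genes sit between the pale lines, and Cox4i2 and Cox7b2 lie farthest out.

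Among complex I genes, 23 of the 30 with enough reads were higher in the aged library, beside 7876 of 12831 over all autosomal genes. Past 1.5-fold, 5 of these 30 genes were higher and none was lower, beside 27% and 14.6% of all autosomal genes. The median log2 ratio of the complex I genes was 0.15, beside 0.19 over all autosomal genes. Their summed ratio was 1.11 (1.08 to 1.14). Ndufs4, an accessory subunit of the electron-input module, was nearly level at 196 RPM in the adult and 199 RPM in the aged library (ratio 1.02, 0.945 to 1.10). Ndufs1, the iron-sulfur subunit that carries electrons from NADH, had 106 and 115 RPM (ratio 1.08, 0.978 to 1.19). Ndufa5, an accessory subunit of the matrix arm, stood on the other side with 207 RPM in the adult and 144 RPM in the aged library (ratio 0.697, 0.642 to 0.756), and without it the complex I sum had a ratio of 1.18. No Ndufb or Ndufc gene was past 1.5-fold. Ndufa13, a subunit also known as GRIM-19, went from 63.7 to 112 RPM (ratio 1.77, 1.58 to 1.97). Ndufs3, a core subunit of the matrix arm, went from 38.0 to 64.9 RPM (ratio 1.71, 1.48 to 1.98). Ndufv2, Ndufab1 and Ndufs8 had ratios of 1.57, 1.53 and 1.53, and the interval of Ndufs8 (46 and 42 reads) reached down to 0.984.

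Complex II is the only complex with no subunit encoded in mitochondrial DNA, and its 4 genes summed to 251 RPM in the adult and 308 RPM in the aged library (ratio 1.23, 1.16 to 1.31). Most of this difference was in Sdhb, the iron-sulfur subunit, which had 84.6 RPM in the adult and 132 RPM in the aged library (ratio 1.56, 1.41 to 1.72). Sdha, the flavoprotein that oxidises succinate, had 144 and 154 RPM (ratio 1.07, 0.983 to 1.16), and Sdhc, a membrane anchor, had 12.1 and 11.4 RPM (ratio 0.939, 0.684 to 1.28). Without Sdhb the sum of the other 3 had a ratio of 1.06 (0.98 to 1.15), an interval that includes 1.

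Complex III genes summed to a ratio of 1.07 (1.00 to 1.14), and 3 of its 8 genes (Uqcr11, Uqcrq and Uqcrb) had too few reads for a ratio. Uqcrc1, a core protein, was lower at 93.1 RPM in the adult and 77.2 RPM in the aged library (ratio 0.829, 0.739 to 0.930). Uqcrc2, the second core protein, had 64.5 and 74.4 RPM (ratio 1.15, 1.02 to 1.31), and Uqcrfs1, the Rieske iron-sulfur protein, 54.8 and 57.0 RPM (ratio 1.04, 0.905 to 1.2). The core proteins therefore lay on opposite sides of 1 on this scale, each with an interval that excluded it. Uqcrh, the hinge protein, was the complex III gene past 1.5-fold (ratio 1.66, 1.18 to 2.32).

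Complex IV had the widest range of ratios. Its 16 autosomal genes summed to 617 RPM in the adult and 739 RPM in the aged library (ratio 1.2, 1.15 to 1.25), and the most-read ones were near level or moderately higher. Cox7c had a ratio of 1.00 (0.924 to 1.09), Cox4i1 of 1.03 (0.913 to 1.15) and Cox6c of 1.24 (1.12 to 1.37). Cox6a1 and Cox5b were past 1.5-fold, with ratios of 1.63 (1.33 to 2.0) and 1.58 (1.31 to 1.90). Cox7b2, a paralog known for its testis expression, was at the other end with 54 adult and 8 aged reads (ratio 0.249, 0.102 to 0.526), and its locus spans 105383 bp.

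The isoform pairs of complex IV did not move as a class. Cox4i2, the isoform of the regulatory subunit linked to low oxygen and known from lung and from mural cells of vessels, had 66 adult and 206 aged reads, or 6.77 and 35.5 RPM (ratio 5.24, 3.95 to 7.02), the largest ratio among the 78 genes. Its ubiquitous partner Cox4i1 had 79.6 and 81.6 RPM. Summed pericyte and smooth muscle markers went from 176 to 427 RPM (5 of 6 listed, 4 of 5 higher, none at 0). Rgs5 was at 2.33-fold and Myh11 at 3.32-fold, whereas Abcc9 was lower (24.8 to 21.2 RPM, ratio 0.853). The part of these markers in the Cox4i2 ratio was not tested. The Cox4i2 locus spans 12503 bp, of which 6308 bp are shared with Bcl2l1 and 5278 bp with Gm32057. Bcl2l1 had a ratio of 1.76 and Gm32057, on 20 and 42 reads, of 3.53 (2.02 to 6.34). Reads within these overlaps cannot be assigned to Cox4i2 alone. Ndufa4l2, the paralog of Ndufa4 induced at low oxygen, had 7 adult and 25 aged reads (ratio 6.00, 2.52 to 16.4), under the 50-read minimum, whereas Ndufa4, now placed with complex IV, had 79.7 and 69.2 RPM (ratio 0.869, 0.768 to 0.981). Both low-oxygen paralogs had a higher ratio of aged to adult reads than their partners, on few reads in the case of Ndufa4l2. Without Cox4i2 the complex IV sum had a ratio of 1.15 (1.11 to 1.2).

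For the pairs that separate heart and skeletal muscle from other tissues, the muscle form Cox6a2 had a ratio of 0.992 (0.821 to 1.2) beside 1.63 for the ubiquitous Cox6a1, whose intervals did not overlap. The muscle form Cox7a1 had 33 and 29 reads (ratio 1.48, 0.864 to 2.51) beside 0.918 (0.805 to 1.05) for the ubiquitous Cox7a2 and 1.44 (1.21 to 1.73) for Cox7a2l. Cox8b, the muscle form, and Cox8a, the ubiquitous one, had ratios of 1.29 (0.775 to 2.13) and 1.31 (1.09 to 1.57). Cox6b1 had a ratio of 1.31 (1.10 to 1.56), and the testis form Cox6b2 only 9 and 4 reads. The ubiquitous form had the higher ratio with intervals apart for Cox6a alone, and in the Cox7a pair the muscle form had the higher point value with overlapping intervals.

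ATP synthase had a ratio near 1 when scaled by the library sum (0.879 by the median of the gene ratios), with 1056 RPM in the adult and 1052 RPM in the aged library over its 15 genes (ratio 0.997, 0.965 to 1.03). None of the 15 was past 1.5-fold on the higher side, beside 27% of all autosomal genes. Atp5f1 of the peripheral stalk and Atp5a1, the alpha subunit of the catalytic head, had ratios of 1.01 (0.928 to 1.09) and 1.05 (0.965 to 1.15). Atp5c1, the gamma subunit of the central stalk, was lower (159 to 127 RPM, ratio 0.802, 0.734 to 0.876), and Atp5b, the catalytic beta subunit, was higher (57.3 to 83.4 RPM, ratio 1.45, 1.28 to 1.65). Atp5j, a coupling factor of the peripheral stalk, was the 1 subunit past 1.5-fold, with 1020 adult and 336 aged reads, or 105 and 57.9 RPM (ratio 0.553, 0.487 to 0.626). It starts beside Gabpa and shares 701 bp with it, and Gabpa had a ratio of 0.930. Without Atp5j the other 14 genes summed to a ratio of 1.05 (1.01 to 1.08). Atp5s, which is no subunit, was also past 1.5-fold lower (182 and 57 reads, ratio 0.526, 0.383 to 0.712).

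The Ndufaf genes, whose products build complex I and are not part of the finished enzyme, had the highest summed ratio of the groups matched by name (1.41, 1.32 to 1.5). Ndufaf4 and Ndufaf6 carried it. Ndufaf4 had 611 adult and 781 aged reads, or 62.7 and 134 RPM (ratio 2.15, 1.93 to 2.39), and Ndufaf6 had 331 and 379 reads, or 34.0 and 65.3 RPM (ratio 1.92, 1.65 to 2.23). Both lie on chromosome 4, at chr4:24898083-24905001 and chr4:11051042-11076246, and neither locus overlaps another. The other 5 factors summed to a ratio of 0.942 (0.860 to 1.03), with Ndufaf2 at 0.813 (0.711 to 0.927).

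**Figure D2:**
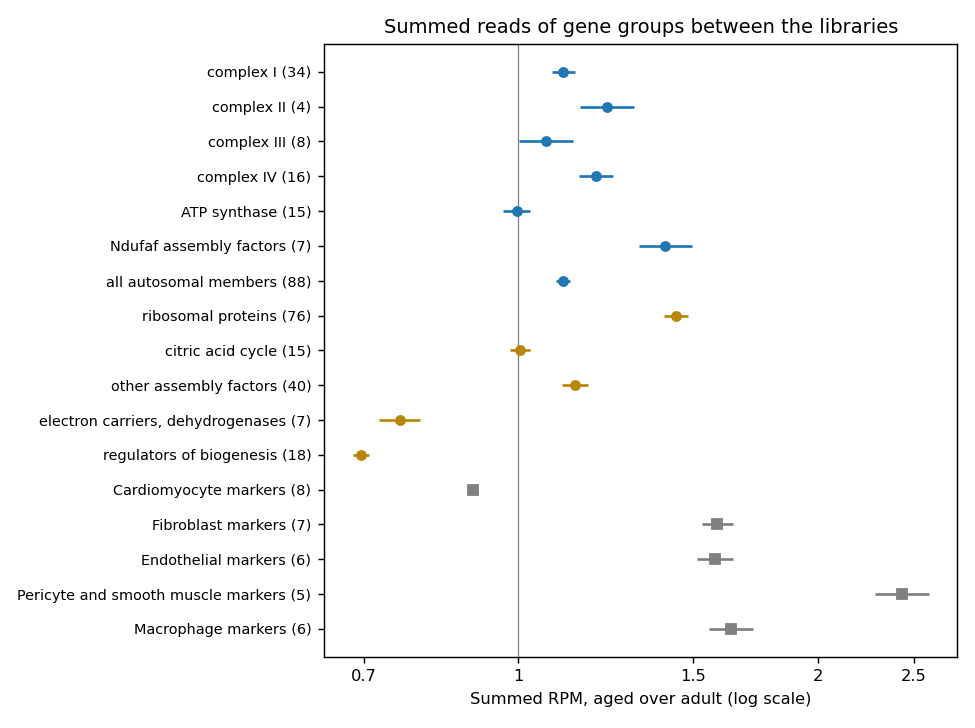
Ratio of summed RPM (aged over adult, log scale) for the complexes and assembly factors (blue), other gene lists of the pathway and ribosomal proteins (ochre) and cell type markers (grey), with 95% counting intervals and the number of genes in brackets. ATP synthase sits at 0.997, Ndufaf assembly factors at 1.41, ribosomal proteins at 1.44 and the regulators at 0.695.

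Set beside other groups, the subunit genes differed less between the libraries than ribosomal protein genes, which are used in every cell and are shorter still (median span 3157 bp over 76 autosomal genes, all under 20 kb). Of the 59 ribosomal protein genes with enough reads, 30 were past 1.5-fold higher (50.8%) and 0 lower, beside 27% and 14.6% of all autosomal genes. Their median log2 ratio was 0.60. Gene span moved with the ratio over all genes, since the median log2 ratio was 0.34 for autosomal genes spanning under 20 kb and -0.019 for those spanning at least 100 kb. The 64 autosomal genes of the pathway under 20 kb (subunits, Ndufaf factors, Atp5s and Atp5sl) had a median of 0.16, below the 0.34 of all autosomal genes of that span. Citric acid cycle genes, which feed the chain, summed to a ratio of 1.01 (0.982 to 1.03) over 15 autosomal genes. Of these, 1 was past 1.5-fold higher (Pdhb, 1.54) and 1 lower (Suclg2, 0.418). Each made up 6.67% of the list, beside 27% and 14.6% of all autosomal genes. Pdha1 and Idh3g of this list are X-linked and were left out.

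Of 40 listed assembly factors with other names, 35 had enough reads, and 12 were past 1.5-fold higher (34.3%) and 4 lower (11.4%) in the aged library, beside 27% and 14.6% of all autosomal genes. The higher ones included Tmem126a, which takes part in complex I assembly (30.9 to 84.2 RPM, ratio 2.73), Surf1, an assembly factor of complex IV (51 and 59 reads, ratio 1.94), and Cox11, which delivers copper to complex IV (51.2 to 87.0 RPM, ratio 1.70). The Surf1 locus overlaps Surf2 and that of Cox11 overlaps Tom1l1, and reads within these overlaps were not separated. Nubpl, which supplies iron-sulfur clusters to complex I, was lower (62.3 to 20.3 RPM, ratio 0.326). The list's median log2 ratio was 0.35. Of 7 electron carriers and dehydrogenases that feed the chain, 6 had enough reads, with 2 higher and 4 lower in the aged library. Their median log2 ratio was -0.37, and all 7 summed to a ratio of 0.760 (0.726 to 0.796). Past 1.5-fold, Dhodh was higher (61 and 55 reads, ratio 1.51). Etfb, a subunit of the electron transfer flavoprotein, was lower past it (34.3 to 13.1 RPM, ratio 0.382). Each made up 16.7% of the 6, beside 27% and 14.6% of all autosomal genes.

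Of the 18 regulators of mitochondrial biogenesis, 7 were past 1.5-fold higher (38.9%) and 3 lower (16.7%), beside 27% and 14.6% of all autosomal genes. Ppargc1a (PGC-1 alpha), the coactivator of the pathway, was lower, at 969 RPM in the adult and 554 RPM in the aged library (ratio 0.572), and so was Esrrg, a nuclear receptor it works with (1531 to 726 RPM, ratio 0.474). Tfb1m was lower as well (ratio 0.656). The higher ones were Polrmt (the mitochondrial RNA polymerase, ratio 2.45), Pprc1 (2.19), Perm1 (2.02), Esrra (1.88), Gabpb1 (1.73), Nrf1 (1.63) and Mef2d (1.62). The loci of Esrrg, Tfb1m, Perm1, Esrra, Gabpb1, Nrf1 and Mef2d overlap other loci, and reads within these overlaps were not separated. Summed over the list the ratio was 0.695, and without Ppargc1a and Esrrg it was 1.01 (0.981 to 1.04). The sum over the autosomal subunit and assembly genes stood at 1.11 beside these values.

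Promoter letters were read for 4 factors of this pathway. The RefSeq promoter table (build GRCm38.p6, 250 bases before to 50 after each start) held 72 of the 90 genes. Each was searched on both strands for NRF1 (GCGCATGC, which can overlap a match on the other strand by most of its length), GABPA (CCGGAAG), ESRRA (AAGGTCA) and YY1 (AAGATGG). Any of the 4 was found in 36 of 72 (50%), against 23.9% of all 17767 promoters in the table. NRF1 letters were in 16.7% against 3.74%, GABPA letters in 22.2% against 11.9%, ESRRA letters in 11.1% against 4.24%, and YY1 letters in 12.5% against 6.53%. Of the 9 YY1 matches, 8 lay 23 to 39 bases after the start, and its letters contain ATG, which can be a start codon. The median log2 ratio was 0.17 for the 33 autosomal genes with a match and enough reads, and 0.15 for the 32 without one. A match is a run of letters and not a bound site.

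The 120 bases before the start are printed 5′ to 3′ for 4 of the 6 genes past 1.5-fold higher whose 300-base window held a match, for Atp5j, which was lower, and for both X-linked genes, with letters of any of the 4 motifs (either strand) in capitals:
Ndufaf4, chr4:24897963-24898082 (+ strand): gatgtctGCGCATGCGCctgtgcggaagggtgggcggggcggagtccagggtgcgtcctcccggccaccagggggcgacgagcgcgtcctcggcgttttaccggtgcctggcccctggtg
Sdhb, chr4:140961151-140961270 (+ strand): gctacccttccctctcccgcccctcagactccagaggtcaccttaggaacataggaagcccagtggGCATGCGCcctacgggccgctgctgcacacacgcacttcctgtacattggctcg
Ndufs3, chr2:90904722-90904841 (- strand): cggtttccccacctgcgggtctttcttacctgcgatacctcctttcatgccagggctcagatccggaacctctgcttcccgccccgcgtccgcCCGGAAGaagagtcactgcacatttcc
Cox6a1, chr5:115348959-115349078 (- strand): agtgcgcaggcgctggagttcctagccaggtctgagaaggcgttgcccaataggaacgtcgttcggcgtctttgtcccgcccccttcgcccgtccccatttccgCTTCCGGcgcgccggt
Atp5j, chr16:84835626-84835745 (- strand): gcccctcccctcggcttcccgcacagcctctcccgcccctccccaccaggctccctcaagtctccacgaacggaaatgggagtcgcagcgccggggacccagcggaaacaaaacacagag
Ndufb11, chrX:20617620-20617739 (- strand): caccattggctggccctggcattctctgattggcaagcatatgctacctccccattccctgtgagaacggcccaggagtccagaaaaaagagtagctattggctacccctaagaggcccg
Cox7b, chrX:106015580-106015699 (+ strand): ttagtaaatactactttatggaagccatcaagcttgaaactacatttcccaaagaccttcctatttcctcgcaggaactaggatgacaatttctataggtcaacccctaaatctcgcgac

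In Ndufaf4 the capitals are NRF1 letters matched on both strands at overlapping positions, and a further match lies after the start. In Sdhb they are NRF1 letters, and in Ndufs3 and Cox6a1 they are GABPA letters. Outside the printed stretch, Sdhb and Ndufs3 also held GABPA letters after the start, and Cox6a1 held NRF1 letters farther upstream. Atp5j, Ndufb11 and Cox7b held none of the 4 in the searched window. Cox4i2 and Ndufa4l2 had no entry in the table.

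The second comparison asked which allele the reads came from. The BL6 share (BL6 reads as a percentage of all reads of a gene) was pooled over the 77 autosomal genes with at least 20 reads in each library, and 11 others fell under that minimum. Adult nuclei had 53.7% (53.2 to 54.2) and aged nuclei 53.9% (53.3 to 54.5), beside 53.3% and 53.7% over all autosomal genes. The reads were aligned to the BL6 reference genome, and the part of that in shares above 50% was not tested. Single genes ranged widely around it, from 31.7% in Ndufb9 to 78.9% in Atp5sl in the adult, and from 25.6% in Atp5g2 to 77.9% in Atp5sl in the aged library. The shares held their place between the libraries, with 61 of 77 genes on the same side of the autosomal share in both and a correlation across genes of r = 0.72 (rho = 0.66, n = 77). Genes are not independent replicates, and the libraries share the cross, the SNPs and the read mapping. Over all 12390 autosomal genes r was 0.67.

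**Figure D3:**
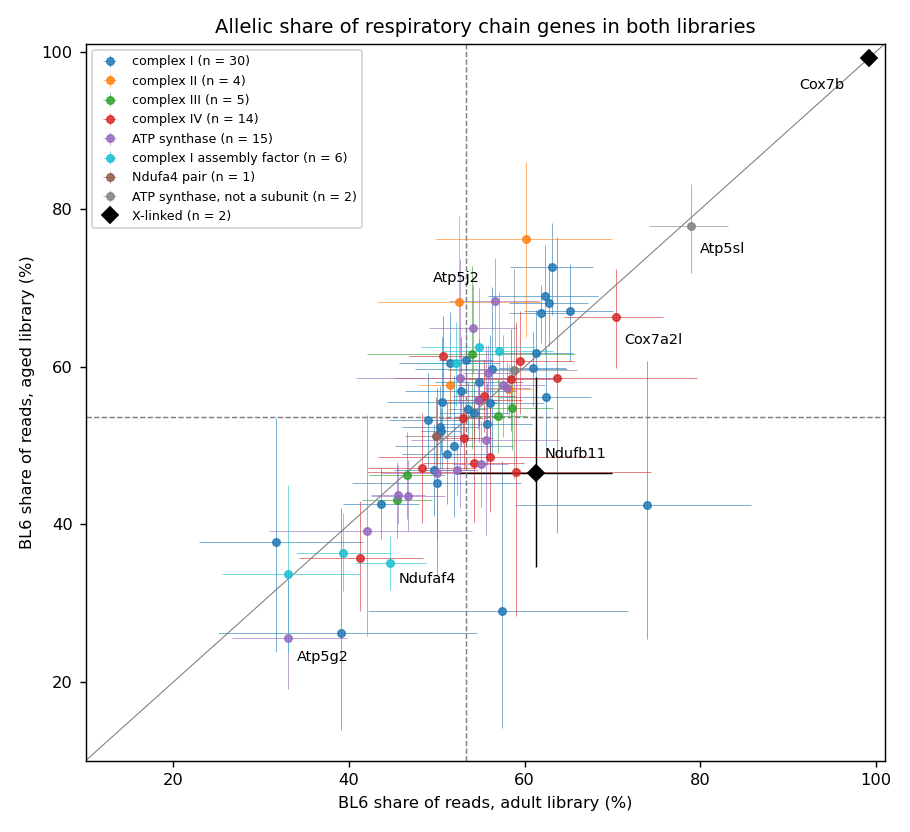
BL6 share of reads in the adult (horizontal) and the aged library (vertical) for the 77 autosomal and 2 X-linked genes over the 20-read minimum, coloured by complex, with 95% counting intervals. Dashed lines mark the pooled autosomal shares (53.3% and 53.7%) and the grey line equal shares; most genes lie near that line, Cox7b is at the top right and Ndufb11 stands among the autosomal genes.

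A gene was called biased when its interval lay wholly on one side of the autosomal share in both libraries. Toward BL6 there were 11 of 77 (14.3%, against 13.8% of all autosomal genes tested), and toward CAST 11 of 77 (14.3%, against 12.7%). Both proportions were near the background, and no class of bias stood out in these genes. Atp5sl, an assembly factor of the complex I membrane arm, had 78.9% BL6 reads of 332 in the adult and 77.9% of 222 in the aged library. Cox7a2l, which joins complexes III and IV into supercomplexes, had 70.4% of 270 and 66.4% of 232. Ndufa3 and Ndufb3, accessory subunits of complex I, had 65.2% and 67.1%, and 63.1% and 72.7%. Ndufab1, the mitochondrial acyl carrier protein that is also a complex I subunit, had 61.9% and 66.8%. The other BL6-biased genes were Ndufa10, Ndufa12, Ndufs6, Ndufa6, Sdha and Atp5a1.

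Toward CAST the strongest case was Atp5g2, 1 of the 3 genes for the c subunit that forms the rotor ring, with 33.0% BL6 reads of 212 in the adult and 25.6% of 160 in the aged library. Of its sister genes, Atp5g1 was also CAST-biased (45.6% and 43.8%), and Atp5g3 had 42.1% and 39.2% on 76 and 51 reads, intervals that included the autosomal share. Of the assembly factors, Ndufaf1, Ndufaf4 and Ndufaf6 were all CAST-biased, with 33.1% and 33.7%, 44.7% and 35.1%, and 39.3% and 36.4%. Ndufv2, an iron-sulfur subunit of the NADH-oxidising module, had 43.6% and 42.7%, and Cox6a1 of complex IV had 41.2% and 35.8%. Atp5b, Uqcrfs1, Uqcrc2 and Ndufb9 completed the list. Pooled over each complex, shares ran from 52.2% (complex III) to 55.8% (complex II) in the adult and from 50% (complex III) to 58.5% (complex II) in the aged library. The intervals of complex I (53.6 to 55.3 and 55.3 to 57.3) and complex II (53.8 to 57.8 and 56.1 to 60.8) lay above the autosomal share in both libraries. Within complex II, Sdha alone had an adult interval above it (58.2%, 55.6 to 60.8). The adult intervals of Sdhb (51.5%, 48.0 to 55.0), Sdhc (52.5%, 43.1 to 61.8) and Sdhd (60.2%, 49.8 to 70.0) included it. In the aged library each of these genes had an interval above it. The Ndufaf factors pooled to 47.9% and 44.4%, and without Ndufaf4 and Ndufaf6 the other 4 with enough reads pooled to 51.5% (48.7 to 54.2) and 58.3% (54.7 to 61.9), so that in the aged library the direction turned.

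The third comparison asked whether the share itself differed between the ages. The intervals of the libraries did not overlap for 5 genes. The share was lower in the aged library in 1 of 77 (1.3%, against 5.44% of all autosomal genes tested) and higher in 4 of 77 (5.19%, against 6.37%), so such differences were no more frequent than in the background. The median absolute difference was 3.47 percentage points, 1.35 times what read sampling alone would give, beside 1.57 times over all autosomal genes. For genes with at least 200 reads in each library these factors were 1.15 (50 genes) and 1.92 (4788 genes).

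Ndufaf4 was the gene with the lower share. Its BL6 reads went from 28.0 to 47.2 RPM (ratio 1.69, 1.42 to 2.0) and its CAST reads from 34.7 to 87.3 RPM (ratio 2.52, 2.19 to 2.90), so both alleles were higher and the CAST allele more so. Ndufaf6, on the same chromosome, kept a similar share with ratios of 1.78 and 2.01 for BL6 and CAST. Atp5j2 and Atp5l, both small subunits of the membrane part of ATP synthase, differed the other way. In Atp5j2 the share went from 56.6% (51.4 to 61.6) to 68.3% (62.5 to 73.8), with BL6 reads at 22.1 and 32.7 RPM and CAST reads at 16.9 and 15.2 RPM. In Atp5l it went from 54.1% (49.1 to 59.1) to 64.9% (59.2 to 70.4), with BL6 reads at 22.2 and 32.6 RPM and CAST reads at 18.8 and 17.6 RPM. In both, the BL6 reads were the ones whose ratio interval excluded 1.

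Cox7a2 differed through the other allele. Its share went from 50.7% to 61.3%, with BL6 reads at 34.0 and 37.7 RPM and CAST reads at 33.0 and 23.8 RPM (CAST ratio 0.720, 0.585 to 0.881). Ndufs1 had 53.3% and 60.9%, and its locus shares 14704 bp with the antisense Ino80dos, whose share was 56.2% in both libraries. The adult reads were thinned to the aged depth by a random draw that was not repeated. In that draw Ndufaf4 and Cox7a2 still had intervals apart and Atp5j2, Atp5l and Ndufs1 did not. None of the 5 had 99% intervals apart. Atp5j, the ATP synthase gene with the lowest ratio, was lower on both alleles, with ratios of 0.479 (0.399 to 0.572) for BL6 and 0.644 (0.538 to 0.768) for CAST. Cox4i2 was higher on both, with ratios of 4.54 (3.08 to 6.81) and 6.14 (4.04 to 9.60).

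**Figure D4:**
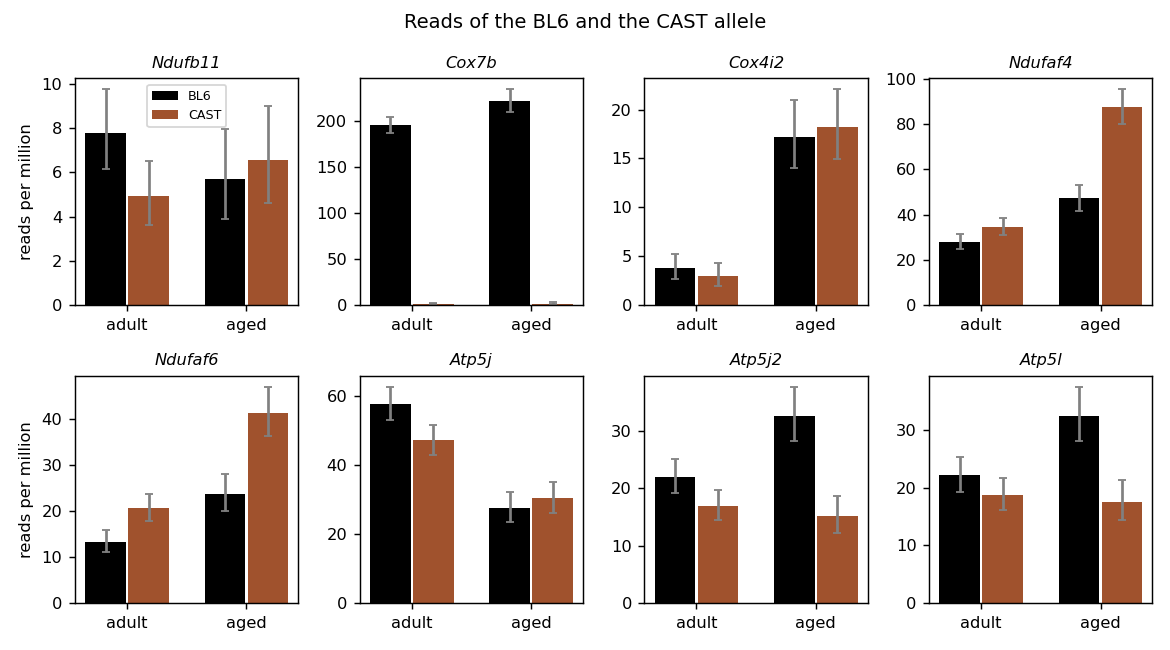
RPM of the BL6 (black) and CAST allele (brown) in the adult and aged library for 8 genes, with 95% Poisson intervals; each panel has its own axis from 0. Cox7b reads are nearly all BL6, Ndufb11 has reads of both alleles in both libraries, Cox4i2, Ndufaf4 and Ndufaf6 are higher and Atp5j lower on both alleles in the aged library, and Atp5j2 and Atp5l are higher on the BL6 allele.

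The X-linked genes were taken apart, because in these nuclei the CAST X is the inactive one and CAST reads of X-linked genes are read as coming from Xi. The nuclei were themselves chosen by their X-wide BL6 share, so a high BL6 share of the X as a whole is partly set by that choice. Over all X-linked genes without Xist and Tsix it was 97.1% (adult) and 96.6% (aged). Cox7b, a small subunit of complex IV at chrX:106015700-106022450, was close to fully silent on Xi. The adult library had 1903 BL6 reads against 14 of CAST and the aged one 1287 against 10, a CAST share of 0.730% (0.40 to 1.22) and 0.771% (0.370 to 1.41). Both were under the X-wide CAST share of 2.94% and 3.43%. Its level was 197 RPM in the adult and 223 RPM in the aged library (ratio 1.14, 1.06 to 1.22). As a log2 ratio this was 0.18, beside medians of 0.021 over 356 X-linked genes and 0.19 over all autosomal genes.

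Ndufb11, a complex I subunit at chrX:20615326-20617564, had reads of both alleles in both libraries. In the adult 76 of 124 reads were BL6 (61.3%, 52.1 to 69.9) and in the aged library 33 of 71 (46.5%, 34.5 to 58.7). These intervals overlapped, while the interval of the difference itself (14.8 points lower in the aged library, Newcombe interval 0.352 to 28.6) excluded 0. Its share was the fourth lowest among 395 sufficiently covered (at least 20 reads) genes of the X in the adult, and the second lowest among 348 in the aged library. Its CAST reads were at 4.92 RPM in the adult and 6.55 RPM in the aged library (ratio 1.33, 0.845 to 2.08), its BL6 reads at 7.80 and 5.68 RPM (ratio 0.729, 0.469 to 1.11), and the sum of both at 12.7 and 12.2 RPM, so that neither allele nor the sum had a ratio interval apart from 1. Its start lies beside that of Rbm10, and the loci share 62 bp, but Rbm10 itself had 94.1% and 95.7% BL6 reads. The CAST share of Ndufb11, 38.7% (30.1 to 47.9) and 53.5% (41.3 to 65.5), lay far outside the intervals of Cox7b in the same nuclei.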

How the data were processed

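The authors aligned snRNA-seq reads with Cell Ranger 7.1.0 to GRCm38/mm10, removed doublets with DoubletFinder when filtering nuclei, pooled nuclei with a BL6 Xa and counted SNP-overlapping reads per RefSeq gene and allele with Allelome.PRO2. They deposited these counts, with the allelic ratio as a fraction (recomputed here from the counts) and an allelic score (not used). Their ambient RNA step (CellBender) is described for the count matrices of nuclei, not for these reads. Whether reads were collapsed by molecular identifier, counted by strand, or shared with processed gene copies is not given in the sources used here, so intervals may be too narrow. The aged library is 78 weeks by its label, although the deposited name carries another number.

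Genes were matched by name. Shares needed at least 20 reads in each library and have exact Clopper-Pearson intervals. Ratios of RPM needed at least 50 reads over both libraries and have exact conditional binomial intervals. A call was intervals apart, or 1.5-fold. Overlaps were taken from the deposited loci. Named genes were both X-linked genes, the isoform pairs, the 3 most-read genes per complex, and the leading called genes (up to 10 biased, 6 per direction for the rest). Others, such as Cox5b, Uqcrh and Atp5b, were chosen after their values were seen. Members, lists and rules were chosen with earlier results of these data known. Alternatives were another scale, minimum, fold, reference and interval level, thinning, and leaving out overlapping loci. Functions were tested on simulated data (Python 3.11.15, scipy 1.17.1, numpy 2.4.6, pandas 2.3.3).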

Additional observations from a re-analysis of the deposited data

How the results depend on the processing

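Over 93 alternative values for 15 results, 72 stayed within their interval or within 1.5 times the count, 20 moved and 1 reversed its sign. For the median log2 results that interval was taken over genes, which are not replicates. For the shares and the summed ratio it covered counting error. With median-of-ratios scaling the median log2 ratio was -0.027, the reverse of the 0.15 reported. The summed ratio, counted as moved, went from above 1 (1.11) to under it (0.979). On that scale 5 genes were higher and 5 lower past 1.5-fold, against 19.2% and 20% of all autosomal genes. All 5 higher genes (Ndufs3, Cox4i2, Ndufaf6, Ndufaf4 and Ndufa13) and 3 of the 5 lower genes (Atp5s, Atp5j and Cox7b2) were also past the fold in the reported scale. Relative to the median gene, an alternative chosen after seeing the data, there were again 5 higher and 5 lower. Of all autosomal genes, 19% and 20.2% were past the fold on that scale. Without the 50 most-read genes in the scale the summed ratio was 1.07. At 2-fold, 2 genes were higher and 1 lower, against 11.7% and 7.58% of all autosomal genes. Against autosomal genes under 20 kb the median lay -0.18 from theirs, in place of -0.032 from all autosomal genes. Also chosen after seeing the data were leaving out Cox4i2, Ndufa4l2 and Atp5j, run for the summed ratio (1.12), and leaving Ttn and Ryr2 out of the scale, run for the 5 level results, none of which moved.

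The count of genes with a lower share in the aged library was 2 with a minimum of 10 reads (Ndufb7 was added), 0 among subunits alone (Ndufaf4 is an assembly factor), 2 with adult reads thinned (Atp5f1 was added) and 0 with 99% intervals. The count with a higher share was 1 when thinned and 0 with 99% intervals. Against a reference of 0.5, which lies below the pooled autosomal shares, 23 genes were biased to BL6. Under these settings the same calls were not counted over all autosomal genes. The median over genes was 54.2% (adult) and 55.4% (aged) in place of the pooled shares. Cox7b divided by the X-wide share came to 102% and 103%.

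No paired analysis was possible because each age has 1 library. Depth limits 11 autosomal genes under 20 reads, and age, animal and library cannot be told apart.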
